A study of Arabidopsis thaliana with 9 samples.

Results

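Expansins and xyloglucan endotransglucosylase/hydrolases (XTHs) are the 2 families of cell wall proteins described here, in seedlings of Arabidopsis thaliana. The 53 members are the rows of a deposited count table named by a list of gene identifiers: 25 expansin genes (19 alpha-expansins, 2 beta-expansins and 4 expansin-like genes) and 28 XTH genes, out of 33655 features. All 53 passed the filter on low counts and were among the 20779 genes tested. RNA was sequenced from whole seedlings at 3 days of age, grown in the dark. There were 3 genotypes with 3 replicate libraries each, all in the Col-0 ecotype: the Col-0 wild type, the mutant cop1-4 and the mutant spaQ. Every genotype had the same treatment, so the controls share it: 3 days of stratification at 4 °C, 3 h of white light, 21 h of darkness, a far-red treatment and 2 further days of darkness. As background, COP1 and the SPA proteins form a ubiquitin ligase complex that keeps light responses off in the dark, cop1-4 is a weak allele of COP1, and spaQ is the usual name for plants mutant in the 4 SPA genes. The labels list no spaQ alleles.

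The wall of a growing plant cell holds cellulose microfibrils tied together by xyloglucan, a branched glucan, and by pectins. Expansins bind this network and loosen it at low pH without cutting it. Most of the work on growth concerns the alpha-expansins (EXPA), while beta-expansins (EXPB) are best known from grass pollen, and no loosening activity has been shown for the expansin-like proteins (EXLA and EXLB). XTH enzymes cut a xyloglucan chain and rejoin it to another chain, and some members of group III hydrolyse it instead. In a dark-grown seedling both families act during the rapid elongation of the hypocotyl, the embryonic stem, and in the root.

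The 5 upstream regions printed here belong to the members that moved farthest and to their closest relatives. XTH17, XTH18 and XTH19 fell farthest among the abundant members in cop1-4, XTH20 is their nearest paralog, and XTH6 rose farthest. Each is the 300 bases before the annotated gene start, 5′ to 3′, read from the TAIR10.1 assembly of RefSeq. Capitals mark the PBE-box (CACATG, or CATGTG on the other strand), a hexamer known to be bound by the PIF transcription factors that promote elongation in the dark.
XTH17, AT1G65310, chr1:24256754-24257053, plus strand: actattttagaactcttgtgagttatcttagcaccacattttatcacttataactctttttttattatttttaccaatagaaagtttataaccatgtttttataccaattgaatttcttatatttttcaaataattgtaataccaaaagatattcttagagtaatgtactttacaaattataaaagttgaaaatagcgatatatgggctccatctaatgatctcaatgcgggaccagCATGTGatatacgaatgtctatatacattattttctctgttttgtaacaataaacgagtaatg
XTH18, AT4G30280, chr4:14827212-14827511, minus strand: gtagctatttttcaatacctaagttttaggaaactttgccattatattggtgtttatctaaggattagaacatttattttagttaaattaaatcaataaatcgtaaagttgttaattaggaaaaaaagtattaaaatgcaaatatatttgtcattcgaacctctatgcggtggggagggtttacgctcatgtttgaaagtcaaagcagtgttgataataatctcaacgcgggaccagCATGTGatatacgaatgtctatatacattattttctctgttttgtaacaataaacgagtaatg
XTH19, AT4G30290, chr4:14830225-14830524, minus strand: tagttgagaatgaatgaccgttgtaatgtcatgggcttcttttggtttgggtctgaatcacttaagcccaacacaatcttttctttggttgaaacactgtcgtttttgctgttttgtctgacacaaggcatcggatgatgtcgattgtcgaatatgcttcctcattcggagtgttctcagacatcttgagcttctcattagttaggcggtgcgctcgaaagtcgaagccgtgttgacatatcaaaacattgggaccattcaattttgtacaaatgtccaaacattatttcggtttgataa
XTH20, AT5G48070, chr5:19481597-19481896, plus strand: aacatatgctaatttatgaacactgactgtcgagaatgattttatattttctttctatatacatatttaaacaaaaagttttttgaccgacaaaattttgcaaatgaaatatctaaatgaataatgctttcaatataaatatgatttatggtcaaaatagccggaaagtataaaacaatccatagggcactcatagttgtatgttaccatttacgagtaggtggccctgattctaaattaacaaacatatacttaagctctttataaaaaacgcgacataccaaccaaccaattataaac
XTH6, AT5G65730, chr5:26298428-26298727, plus strand: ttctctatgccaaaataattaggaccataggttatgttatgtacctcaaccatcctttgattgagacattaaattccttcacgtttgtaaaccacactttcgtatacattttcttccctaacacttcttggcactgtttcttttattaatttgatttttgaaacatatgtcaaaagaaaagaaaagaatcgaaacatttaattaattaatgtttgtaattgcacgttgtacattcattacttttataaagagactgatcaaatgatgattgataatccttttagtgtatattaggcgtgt
The last 73 bases before the gene start were identical in XTH17, on chromosome 1, and XTH18, on chromosome 4, and the PBE-box began 63 bases upstream of the start in both. Over the whole window these 2 regions were 70.3% identical in an alignment of 283 bases. The longest identical run between any other 2 of the 4 XTH17 to XTH20 regions was 11 bases. No PBE-box was present in the windows of XTH19, XTH20 and XTH6.

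Libraries held 22482588 to 38770474 reads assigned to genes. COP1 stood at 29.1 to 35.7 CPM (read counts per library total, scaled by TMM) in the 6 libraries labelled Col-0 and cop1-4, and reads of all 4 SPA genes were present in spaQ, so transcript counts do not check the mutant labels. Among the cop1-4 libraries, replicate 1 had the lowest CPM of its genotype for 46 of the 53 members, and replicate 3 the highest for 32. Among the Col-0 libraries, replicate 2 was lowest for 41 members. Of the 53 members, 6 had a mean log2 CPM below 1, and the least covered had 187 reads over all 9 libraries. Another annotated gene on the opposite strand overlaps EXPA2, EXPA7, EXPA18, EXPA20, EXLA1 and XTH15, and the sources used here do not give the strand setting of the counting, so their counts are uncertain to that extent.

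Against Col-0, more members were lower than higher in each mutant, by a wider margin among expansins than among XTH genes. The test called 41 members in cop1-4, where 62.1% of all tested genes were called, and 48 in spaQ, where 71.6% were. In cop1-4, 27 of the 53 members fell and 14 rose (edgeR's quasi-likelihood test, Benjamini-Hochberg adjusted p under 0.05 over 20779 genes), where 30.3% of all tested genes fell and 31.8% rose. In spaQ, 29 members fell and 19 rose, where 36.1% of all tested genes fell and 35.5% rose. Every cop1-4 library lay below every Col-0 library for 27 members (32.4% of all tested genes) and above for 12 (33.2%), and every spaQ library lay below for 30 (38.2%) and above for 19 (37.1%). Among changes of at least 2-fold, 19 members fell in cop1-4 (11.7% of all tested genes did) and 7 rose (13% did), and 25 fell in spaQ (16.7% did) and 9 rose (16.9% did). The median log2 fold change of the members was -0.41 in cop1-4 and -0.70 in spaQ, beside 0.01 and -0.02 for all tested genes. By family, the medians were -0.61 and -1.13 for expansins and 0.11 and -0.03 for XTH genes. Of the 25 expansin genes, 16 fell and 5 rose in cop1-4, and 16 fell and 7 rose in spaQ. Of the 28 XTH genes, 11 fell and 9 rose in cop1-4, and 13 fell and 12 rose in spaQ. XTH falls of at least 2-fold numbered 9 in cop1-4 and 12 in spaQ, and rises 5 and 6. Scaling by library totals moved the median of all genes to -0.31 in cop1-4 and -0.39 in spaQ. It moved the medians of all 53 members to -0.73 and -1.07. Under that scaling 31 of the 53 members fell and 11 rose in cop1-4, where 49.2% of all genes fell and 19.6% rose. In spaQ 31 of the 53 fell and 15 rose, where 53.8% of all genes fell and 22.9% rose.

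The 2 comparisons share their Col-0 libraries, so their member values are set side by side without a test of likeness. No share of all tested genes is given for calls in both comparisons, so the next counts have no background beside them. Of the members, 26 were lower in both, 14 were higher in both and none was called in opposite directions. Under library totals 2 members were: EXPA10 was lower in cop1-4 (-0.45, adjusted p = 0.00449) and higher in spaQ (0.37, adjusted p = 0.00966), and XTH31 likewise (-0.54, adjusted p = 0.00163, and 0.51, adjusted p = 0.00191). EXPA2, XTH12, XTH13 and XTH28 were called in neither. EXPA20 was called in cop1-4 only, as lower. In spaQ only, EXPA6, EXPA10, XTH9, XTH20 and XTH31 were called higher and EXPA14, XTH4 and XTH21 lower. Whether a member responded differently in the 2 mutants was tested by comparing them directly, as given further on.

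**Figure D1:**
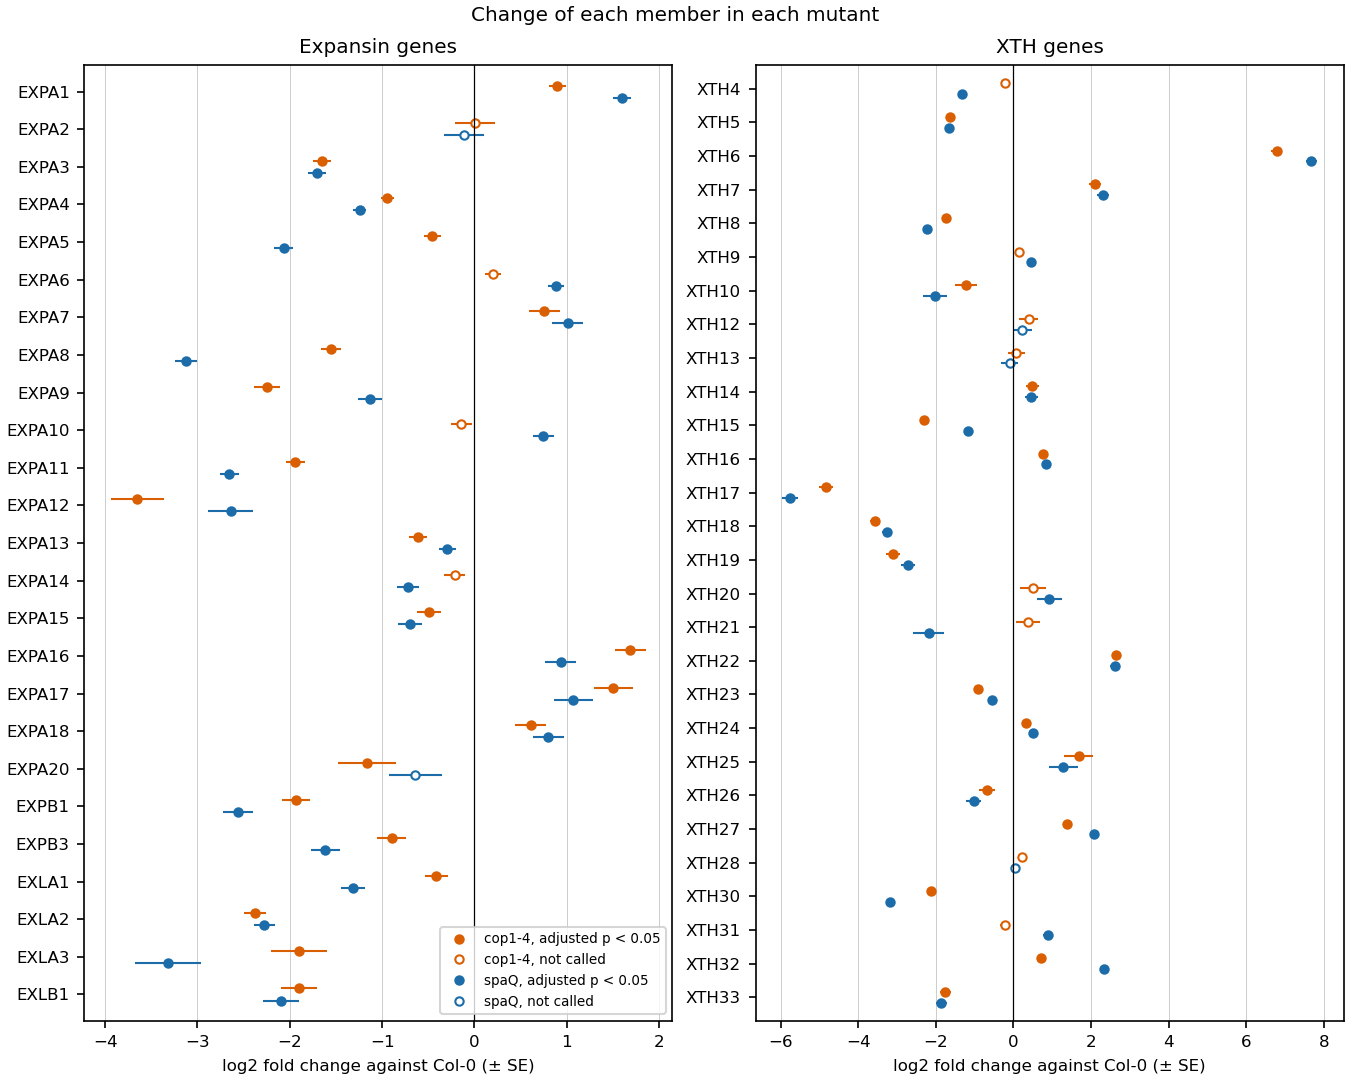
Log2 fold change of each of the 53 members against Col-0 (horizontal axis, ± SE from the fit, 3 libraries per genotype), with cop1-4 in orange and spaQ in blue and open circles for changes that did not pass the test. XTH6 lies far to the right at 6.79 and 7.68 and XTH17 far to the left at -4.84 and -5.76, and all 6 beta-expansin and expansin-like genes lie left of 0.

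Summed over its members, the expansin family stood at 1220 ± 99.6 CPM in Col-0 (mean ± SD, n = 3), 572 ± 69.7 CPM in cop1-4 and 602 ± 24.0 CPM in spaQ. That is 46.9% of the Col-0 sum in cop1-4 and 49.3% in spaQ, and the lowest Col-0 library, at 1106 CPM, was above the highest mutant library, at 633 CPM. XTH genes summed to 5793 ± 432 CPM in Col-0, 4124 ± 539 CPM in cop1-4 (71.2%) and 3866 ± 146 CPM in spaQ (66.7%). Their Col-0 libraries, from 5308 CPM upward, also lay above all mutant libraries, which reached 4552 CPM. In whole seedlings, fewer cells of a type and less RNA per cell cannot be told apart, here and in all results that follow.

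Levels of different genes are compared as CPM per kb of coding sequence. Ranks and shares depend on that choice. Per kb of all annotated exons, EXPA3 was at 160 in Col-0 and XTH30 (282) stood above XTH19 (276). In spaQ EXPA9 (62.6) then stood above EXPA3 (48.9). Per kb of coding sequence XTH4 led all members in Col-0 at 2230, followed by XTH15 at 838 and XTH24 at 827, whose libraries overlapped. XTH17 came next at 560, below XTH15 and XTH24 in every library. XTH19, XTH30, XTH18 and EXPA3, the most abundant expansin, followed at 442, 382, 364 and 361 CPM per kb, each overlapping its neighbour in the order. EXPA9, EXPA11, XTH8 and EXPA8 came next, between 205 and 240 CPM per kb, and did not separate from each other. Of these 12 members, 10 fell and 1 rose in cop1-4, and 11 fell and 1 rose in spaQ. They were picked for a high level in Col-0, the genotype both mutants are compared with, which favours falls, so nothing is read from this count against the 30.3% and 36.1% of all tested genes that fell. XTH24 was the member that rose, and XTH4 the member not called in cop1-4. XTH25 and XTH6 were the lowest members in Col-0, at 0.391 and 1.13 CPM per kb.

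The order changed in the mutants. XTH6 moved from rank 52 in Col-0 to rank 8 in cop1-4, at 126 CPM per kb, and rank 6 in spaQ, at 233 CPM per kb, while XTH17 moved from rank 4 to ranks 32 and 36. XTH4 made up 34.0% of the summed XTH level per kb in Col-0, 40.3% in cop1-4 and 20.0% in spaQ, where XTH24 led with 26.6%. In cop1-4 the share of XTH24 was 22.0%, against 12.6% in Col-0. EXPA3 held the largest expansin share in Col-0 (23.1%) and cop1-4 (15.8%), and EXPA1 the largest in spaQ (17.3%, with EXPA3 at 14.5% and EXPA9 at 14.3%). These shares are of a sum that itself differed between genotypes.

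**Figure D2:**
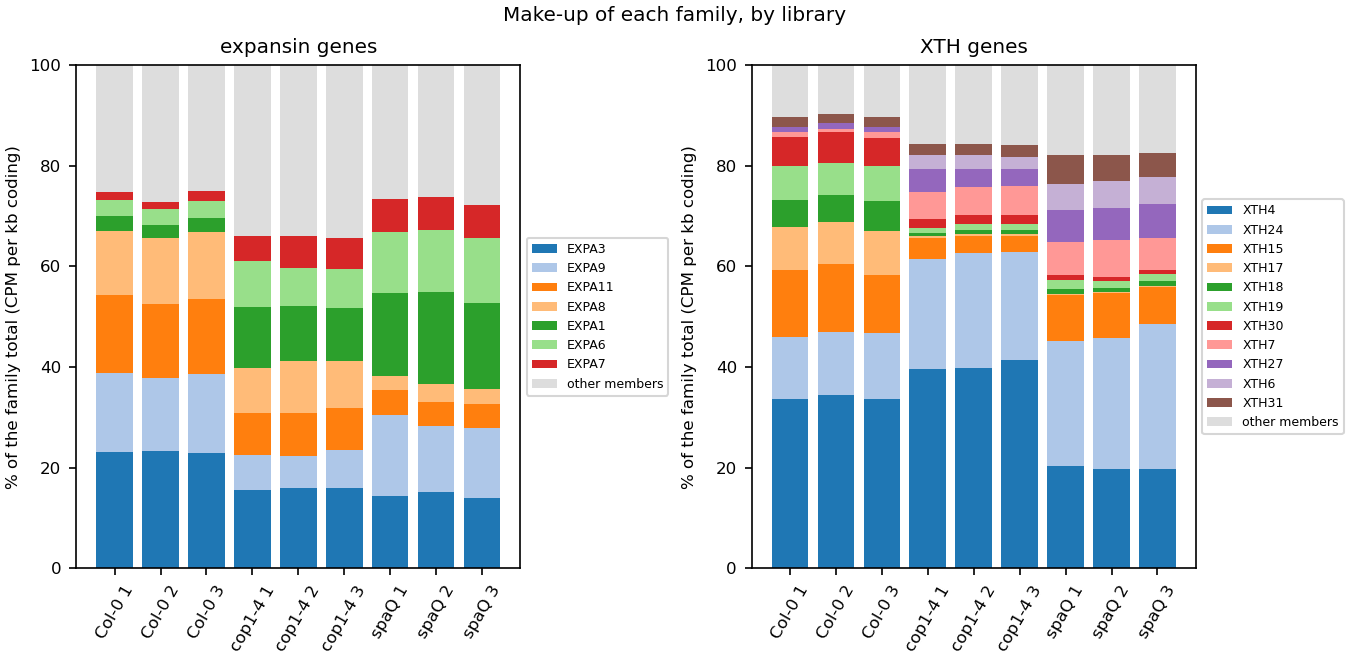
Share of each family's summed level (vertical axis, % of CPM per kb of coding sequence) taken by named members in each of the 9 libraries, expansins on the left and XTH genes on the right, with all remaining members in grey. XTH17 and XTH15 shrink and XTH7, XTH27 and XTH6 widen in every mutant library, and the XTH4 band is narrowest in the 3 spaQ libraries.

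Alpha-expansins, the class best studied in growth, moved in both directions. In cop1-4, 10 of 19 fell (52.6%, beside 30.3% of all tested genes) and 5 rose (26.3%, beside 31.8%). In spaQ, 10 fell (52.6%, beside 36.1%) and 7 rose (36.8%, beside 35.5%). The summed level of the alpha-expansins was 1067 CPM in Col-0, 511 CPM in cop1-4 and 561 CPM in spaQ. The 4 most abundant per kb in Col-0, picked by that level in the same way, were EXPA3, EXPA9, EXPA11 and EXPA8 (together 66.5% of the family level), and each fell in both mutants. EXPA3 ranged from 261 to 299 CPM in Col-0, 77.7 to 101 CPM in cop1-4 and 84.9 to 89.2 CPM in spaQ, log2 fold changes of -1.65 ± 0.10 (adjusted p = 8.29e-10) and -1.71 ± 0.10 (adjusted p = 3.17e-10). The mutants were not told apart for EXPA3, with a direct log2 difference of -0.06 and a 95% interval of -0.27 to 0.15.

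EXPA8 had 158, 141 and 169 CPM in the Col-0 libraries, 43.5, 59.5 and 56.8 CPM in cop1-4 and 17.3, 19.5 and 17.03 CPM in spaQ. Each mutant library was below every Col-0 library and each spaQ library below every cop1-4 library, with log2 fold changes of -1.55 ± 0.11 (adjusted p = 7.26e-09) in cop1-4 and -3.12 ± 0.12 (adjusted p = 2.5e-12) in spaQ. EXPA9 gave 198, 159.8 and 201 CPM in the Col-0 libraries, 33.7, 37.1 and 47.2 CPM in cop1-4 and 98.4, 73.8 and 83.4 CPM in spaQ, so that its lowest mutant libraries were those of cop1-4. The log2 fold change of EXPA9 was -2.25 ± 0.14 (adjusted p = 1.06e-09) in cop1-4 and -1.13 ± 0.13 (adjusted p = 1.37e-06) in spaQ. EXPA11 gave 191, 158 and 186 CPM in the Col-0 libraries, 40.05, 48.6 and 51.3 CPM in cop1-4 and 30.2, 26.8 and 28.1 CPM in spaQ. Its groups did not overlap, and the log2 fold changes were -1.94 ± 0.10 (adjusted p = 2.27e-10) and -2.65 ± 0.11 (adjusted p = 4.5e-12).

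Other alpha-expansins that fell were less abundant. EXPA4 fell by 0.94 and 1.24 and EXPA15 by 0.49 and 0.70 on the log2 scale in cop1-4 and spaQ. EXPA5 changed little in cop1-4 (-0.46 ± 0.09 (adjusted p = 0.000548)) and strongly in spaQ (-2.07 ± 0.10 (adjusted p = 4.95e-11)), where it went from 24.2 to 25.3 CPM in wild-type libraries to 5.70 to 6.28 CPM. EXPA12, at 3.11 to 4.49 CPM in Col-0, was the expansin with the largest fall in cop1-4 (log2 fold change -3.65 ± 0.28 (adjusted p = 2.06e-08)), where no library exceeded 0.427 CPM. EXPA13 fell by 0.61 in cop1-4, and its fall of 0.29 in spaQ was no longer called without Col-0 replicate 1 (adjusted p = 0.0534) or without spaQ replicate 1 (adjusted p = 0.0516). EXPA14, known from emerging lateral roots, was called only in spaQ, with log2 fold changes of -0.21 ± 0.12 (adjusted p = 0.122) and -0.72 ± 0.12 (adjusted p = 5.76e-05), and passed in cop1-4 under library totals (-0.53). EXPA20 gave -1.16 ± 0.31 (adjusted p = 0.00423) in cop1-4 and -0.64 ± 0.29 (adjusted p = 0.0586) in spaQ, where it was called without Col-0 replicate 2 (-0.82), without cop1-4 replicate 1 (-0.64) or under library totals (-1.01).

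The alpha-expansins that rose included genes known from particular cell types. EXPA1, which acts in the walls of guard cells, ranged from 30.6 to 39.8 CPM in Col-0, from 63.04 to 70.3 CPM in cop1-4 and from 107 to 110.4 CPM in spaQ, log2 fold changes of 0.90 ± 0.09 (adjusted p = 5.61e-07) and 1.60 ± 0.09 (adjusted p = 3.76e-10). EXPA7 and EXPA18, the expansins of growing root hair cells, rose by 0.76 and 0.61 in cop1-4 and by 1.01 and 0.80 in spaQ (log2), with the cop1-4 call of EXPA18 lost under library totals (0.30, adjusted p = 0.135). The libraries of Col-0 and cop1-4 touched for EXPA7 and EXPA18: the highest Col-0 library, replicate 3, stood at 25.1 and 17.4 CPM and the lowest cop1-4 library, replicate 1, at 24.4 and 15.9 CPM. EXPA16 and EXPA17, the latter known from lateral roots, were at most 2.54 and 2.41 CPM in Col-0 and rose by 1.69 and 1.505 in cop1-4 and 0.93 and 1.07 in spaQ. EXPA6 was called only in spaQ (log2 fold change 0.89 ± 0.09 (adjusted p = 2.13e-07), against 0.20 ± 0.09 (adjusted p = 0.0619) in cop1-4). Its cop1-4 value passed without Col-0 replicate 3 (0.27, adjusted p = 0.0289) or with a replicate block (0.20, adjusted p = 0.0392), and was -0.12 under library totals. EXPA10, a gene of leaf and petiole growth, was likewise called higher in spaQ (0.75 ± 0.11 (adjusted p = 2.22e-05)) and not in cop1-4 (-0.14 ± 0.12 (adjusted p = 0.314)), where it was called lower under library totals (-0.45, adjusted p = 0.00449). EXPA2, which acts in the endosperm during germination, did not pass in either mutant, at 0.01 ± 0.22 and -0.11 ± 0.22 on the log2 scale.

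Both beta-expansins and all 4 expansin-like genes fell in both mutants, where 30.3% of all tested genes fell in cop1-4 and 36.1% in spaQ. EXPB1 stood at 28.8, 27.7 and 29.4 CPM in the Col-0 libraries, 6.001, 7.99 and 8.69 CPM in cop1-4 and 5.80, 3.45 and 5.51 CPM in spaQ. No group overlapped another, and its log2 fold changes were -1.93 ± 0.15 (adjusted p = 2.77e-08) and -2.56 ± 0.16 (adjusted p = 9.25e-10). EXPB3 fell by 0.90 in cop1-4 and by 1.61 in spaQ on the log2 scale. The 2 beta-expansins together went from 36.3 CPM to 11.7 CPM and 7.42 CPM, which is 32.1% and 20.4% of their Col-0 sum.

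EXLA2 had 62.5, 55.7 and 65.5 CPM in the Col-0 libraries, 10.01, 13.1 and 12.3 CPM in cop1-4 and 11.1, 12.3 and 14.5 CPM in spaQ. Its mutant libraries overlapped each other and lay far below Col-0, with log2 fold changes of -2.38 ± 0.12 (adjusted p = 7.1e-11) and -2.28 ± 0.11 (adjusted p = 5.67e-11). EXLB1 gave 9.05, 7.55 and 9.52 CPM in the Col-0 libraries, 1.86, 2.52 and 2.69 CPM in cop1-4 and 1.497, 2.62 and 1.91 CPM in spaQ, again with the mutants overlapping, and log2 fold changes of -1.90 ± 0.19 (adjusted p = 4.58e-07) and -2.09 ± 0.19 (adjusted p = 9.83e-08). EXLA1 fell by 0.41 in cop1-4 and by 1.31 in spaQ, and its neighbour EXLA3, at most 2.00 CPM in Col-0, fell by 1.90 and 3.32 (log2). EXLA1 and EXLA3 are 86.6% identical over their coding sequences with a shared run of 57 bases, so reads from that stretch cannot be assigned to either with certainty.

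XTH group I, with 7 members, held the gene that rose farthest and the most abundant gene. XTH6 was close to absent in the wild type, with 1.05, 1.21 and 0.728 CPM in the Col-0 libraries, 98.9, 120 and 113 CPM in cop1-4 and 195, 200.5 and 220 CPM in spaQ. All 3 Col-0 libraries were near 1 CPM and all spaQ libraries were above all cop1-4 libraries. Log2 fold changes were 6.79 ± 0.15 (adjusted p = 2.76e-14) in cop1-4 and 7.68 ± 0.15 (adjusted p = 5.09e-15) in spaQ. XTH7 gave 54.98, 39.6 and 66.5 CPM in the Col-0 libraries, 192, 246 and 256 CPM in cop1-4 and 256, 281 and 262 CPM in spaQ, with overlap between the mutants only. It rose by 2.10 ± 0.15 (adjusted p = 9.12e-09) and 2.31 ± 0.15 (adjusted p = 2e-09) on the log2 scale.

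XTH4, known from secondary growth and the most abundant member, had 2020, 1845 and 2087 CPM in the Col-0 libraries, 1421, 1744 and 1916 CPM in cop1-4 and 789.9, 763 and 816 CPM in spaQ. The spaQ libraries were clearly lower, while cop1-4 replicate 3 lay within the range of Col-0. Its log2 fold change was -1.33 ± 0.10 (adjusted p = 1.47e-08) in spaQ and -0.23 ± 0.10 (adjusted p = 0.0666) in cop1-4. The cop1-4 value passed the test under library totals (-0.54), with DESeq2 (-0.25, adjusted p = 0.0361), without Col-0 replicate 2 (-0.28) and without cop1-4 replicate 3 (-0.32). XTH8 fell from 196, 174 and 201 CPM to 49.3, 58.04 and 64.5 CPM in cop1-4 and 42.1, 42.5 and 37.9 CPM in spaQ. No libraries of different genotypes overlapped for XTH8, and its log2 fold changes were -1.74 ± 0.10 (adjusted p = 6.01e-10) and -2.22 ± 0.10 (adjusted p = 2.19e-11). XTH5 fell by 1.65 and 1.67 and XTH10, at most 3.24 CPM, by 1.22 and 2.02 (log2). XTH9 was called higher in spaQ only, by 0.46, and not under library totals (0.09, adjusted p = 0.494). Group I summed to 2287 ± 155 CPM in Col-0, 2139 ± 303 CPM in cop1-4 and 1356 ± 29.5 CPM in spaQ, and XTH4 made up most of each sum.

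Group II, with 15 members, contains the paralogs XTH17 to XTH20, genes known from roots, of which XTH17 and XTH15 are also known as shade-induced genes of elongating tissue. XTH17 had 513, 464 and 561 CPM in the Col-0 libraries, 13.2, 18.4 and 22.4 CPM in cop1-4 and 10.9, 7.08 and 10.6 CPM in spaQ. Its 9 values fell in 3 separate ranges, and the log2 fold changes were -4.84 ± 0.19 (adjusted p = 5e-12) in cop1-4 and -5.76 ± 0.20 (adjusted p = 6.85e-13) in spaQ, the largest falls among the members. XTH18 had 308, 276 and 344 CPM in the Col-0 libraries, 21.6, 27.02 and 29.8 CPM in cop1-4 and 33.3, 29.1 and 33.8 CPM in spaQ. In both mutants its level stayed below every Col-0 library by a wide margin, at log2 fold changes of -3.57 ± 0.12 (adjusted p = 1.76e-12) and -3.27 ± 0.12 (adjusted p = 1.9e-12). XTH19, the next gene on chromosome 4, had 385, 319 and 402 CPM in the Col-0 libraries, 28.99, 49.3 and 50.9 CPM in cop1-4 and 65.3, 48.05 and 53.8 CPM in spaQ. Mutant libraries of XTH19 overlapped each other and none reached the Col-0 range, with log2 fold changes of -3.10 ± 0.18 (adjusted p = 7.04e-10) and -2.73 ± 0.18 (adjusted p = 1.57e-09).

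XTH20 did not follow its paralogs. It was a low member, at 1.05 to 2.33 CPM in Col-0, 1.21 to 2.93 CPM in cop1-4 and 2.54 to 3.61 CPM in spaQ, and its log2 fold changes were 0.50 ± 0.34 (adjusted p = 0.209) and 0.93 ± 0.32 (adjusted p = 0.018). The call in spaQ was lost without Col-0 replicate 1 (0.70), without Col-0 replicate 2 (0.80), without spaQ replicate 1 (0.75) and under library totals (0.56), and in cop1-4 it was gained when Col-0 replicate 3 (0.93) or cop1-4 replicate 1 (0.83) was absent. Coding sequences of XTH17 and XTH18 are 92.2% identical, XTH18 and XTH19 89.0%, XTH17 and XTH19 88.6% and XTH17 and XTH20 85.5%. Their longest shared runs were 47, 68, 51 and 44 bases. The read length is not given in the sources used here, so some reads could have been assigned to the wrong paralog, and the low counts of XTH20 are the most exposed to this.

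XTH15, which shares 81.7% of its coding bases with XTH16, had 784, 701 and 702 CPM in the Col-0 libraries, 150.3, 146 and 148 CPM in cop1-4 and 344, 337 and 296 CPM in spaQ. Each genotype occupied its own range with cop1-4 lowest, and the log2 fold changes were -2.30 ± 0.09 (adjusted p = 4.37e-12) in cop1-4 and -1.16 ± 0.08 (adjusted p = 5.2e-09) in spaQ. XTH16 moved the other way, and ranged from 60.6 to 79.3 CPM in wild-type libraries, 115 to 130 CPM in cop1-4 and 126 to 127 CPM in spaQ, at log2 fold changes of 0.76 ± 0.10 (adjusted p = 5.15e-06) and 0.83 ± 0.10 (adjusted p = 1.27e-06). XTH22, the touch-inducible and brassinosteroid-inducible gene TCH4, had 27.6, 26.8 and 30.9 CPM in the Col-0 libraries, 152, 197 and 187 CPM in cop1-4 and 148, 180.4 and 192 CPM in spaQ. It rose in both mutants to overlapping levels, by 2.65 ± 0.12 (adjusted p = 2.92e-11) and 2.61 ± 0.12 (adjusted p = 1.89e-11) on the log2 scale. Its relative XTH23 fell by 0.91 and 0.55 (log2).

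XTH24, also known as MERI5 and the most abundant member per kb in spaQ, had 671, 608 and 731 CPM in the Col-0 libraries, 707, 912 and 902 CPM in cop1-4 and 872, 916 and 1086 CPM in spaQ. Its lowest cop1-4 library fell within the Col-0 range. Log2 fold changes were small, at 0.33 ± 0.11 (adjusted p = 0.0217) and 0.52 ± 0.12 (adjusted p = 0.000863). Under library totals neither passed (0.02 and 0.14), and in cop1-4 the adjusted p rose to 0.0505 without Col-0 replicate 1, to 0.0843 without its replicate 2, and to 0.0974 and 0.0770 when replicate 2 or 3 of cop1-4 was absent.

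The remaining group II members are mostly known from roots. XTH14, expressed in the root, was called higher in both mutants at log2 fold changes of 0.49 ± 0.16 (adjusted p = 0.0145) and 0.46 ± 0.16 (adjusted p = 0.0162). Neither call of XTH14 survived library totals (0.18 and 0.09) or the loss of Col-0 replicate 1 (0.42 and 0.40) or Col-0 replicate 2 (0.40 and 0.37), and the cop1-4 call was also lost without cop1-4 replicate 3 (0.30) and the spaQ call without spaQ replicate 1 (0.43). XTH26, known from root hair cells, fell by 0.68 and 1.03 (log2), in the opposite direction to EXPA7 and EXPA18. XTH12 and XTH13, 89.7% identical in coding sequence, did not pass in either mutant. XTH12 was called higher in cop1-4 without Col-0 replicate 3 (0.63, adjusted p = 0.0492) or without cop1-4 replicate 1 (0.69, adjusted p = 0.00201). XTH25 rose by 1.69 and 1.29 from at most 0.394 CPM in Col-0. XTH21, a gene of root growth, stood at 1.10 to 1.43 CPM in Col-0, 1.24 to 2.13 CPM in cop1-4 and 0.114 to 0.438 CPM in spaQ, log2 fold changes of 0.38 ± 0.31 (adjusted p = 0.301) and -2.18 ± 0.40 (adjusted p = 0.000172). Group II as a whole summed to 2854 ± 231 CPM in Col-0, 1556 ± 206 CPM in cop1-4 and 1859 ± 110 CPM in spaQ.

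Group III, with 6 members, summed to 651 ± 45.7 CPM in Col-0, 429 ± 34.0 CPM in cop1-4 and 651 ± 20.4 CPM in spaQ, which is 65.9% and 99.9% of the Col-0 sum. Its members moved in both directions. XTH30 fell from 402, 374 and 408 CPM to 78.2, 90.96 and 104 CPM in cop1-4 and 43.2, 43.2 and 43.9 CPM in spaQ. The 3 spaQ libraries were nearly equal and all below cop1-4, and the log2 fold changes were -2.12 ± 0.10 (adjusted p = 4.26e-11) and -3.19 ± 0.10 (adjusted p = 4.12e-13). XTH33, whose protein is anchored in the plasma membrane, had 38.04, 30.1 and 43.4 CPM in the Col-0 libraries, 8.87, 11.7 and 12.7 CPM in cop1-4 and 10.3, 9.96 and 10.6 CPM in spaQ. The mutants overlapped and lay below Col-0, with log2 fold changes of -1.75 ± 0.14 (adjusted p = 2.34e-08) and -1.85 ± 0.14 (adjusted p = 7.38e-09).

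XTH27, known from leaf tracheary elements, rose, with 67.8, 64.9 and 71.9 CPM in the Col-0 libraries, 181, 173 and 178 CPM in cop1-4 and 277, 277 and 310.4 CPM in spaQ. Its genotypes did not overlap, and the log2 fold changes were 1.38 ± 0.08 (adjusted p = 6.07e-10) and 2.08 ± 0.08 (adjusted p = 3.16e-12). XTH31 and XTH32 are the group III enzymes with hydrolase activity. XTH32 had 17.2, 13.02 and 16.2 CPM in the Col-0 libraries, 23.4, 24.1 and 29.5 CPM in cop1-4 and 87.2, 75.4 and 72.9 CPM in spaQ. It rose by 0.72 ± 0.12 (adjusted p = 7.46e-05) in cop1-4 and by 2.34 ± 0.12 (adjusted p = 5.77e-11) in spaQ on the log2 scale. XTH31 stood at 95.4 to 119.5 CPM in Col-0, 77.5 to 111 CPM in cop1-4 and 195 to 222 CPM in spaQ, and was called in spaQ (0.89 ± 0.12 (adjusted p = 8.35e-06)) and not in cop1-4 (-0.23 ± 0.12 (adjusted p = 0.113)). Its cop1-4 value passed as lower under library totals (-0.54), without Col-0 replicate 2 (-0.33) and without cop1-4 replicate 3 (-0.35). XTH28, known from stamen filaments, was not called, at 0.22 ± 0.10 and 0.03 ± 0.10. It was called higher in cop1-4 when replicate 1 of Col-0 (0.27) or of cop1-4 (0.29) was absent, and under library totals it was called lower in spaQ (-0.34, adjusted p = 0.00648).

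**Figure D3:**
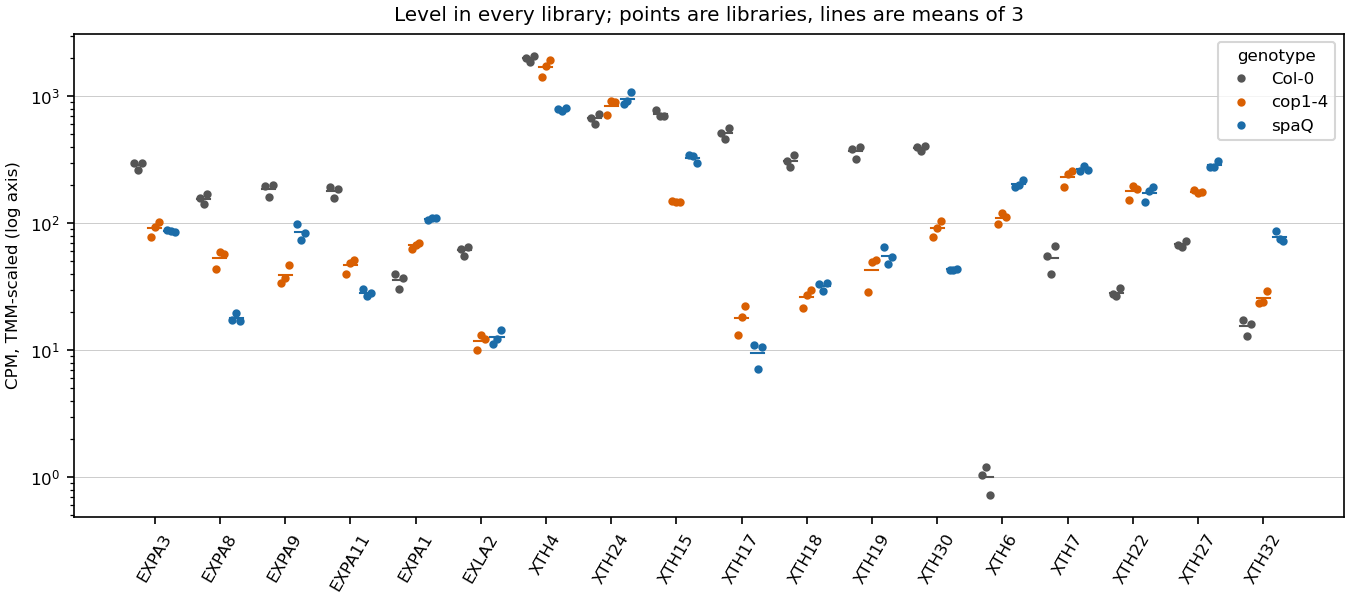
TMM-scaled CPM of 18 members in each of the 9 libraries (vertical axis, log scale; points are libraries and lines are means of 3), with Col-0 in grey, cop1-4 in orange and spaQ in blue. The Col-0 points stand above both mutants for XTH17, XTH18, XTH19, XTH15 and XTH30 and below them for XTH6, XTH7, XTH22 and XTH27.

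Compared directly, the mutants differed in 28 of the 53 members, where 47.5% of all tested genes differed. In spaQ 15 members were lower than in cop1-4 and 13 were higher, where 23.5% and 24% of all tested genes were called. Every spaQ library lay below every cop1-4 library for 16 members (28.6% of all tested genes) and above for 14 (28.7%). At 2-fold or more, 6 were lower and 5 higher, beside 5.85% and 4.04% of all tested genes. The median log2 difference over the members was -0.06, against -0.01 for all genes, and was 0.10 without cop1-4 replicate 3. Leaving out single libraries moved the count of lower members between 14 and 20, and of higher members between 9 and 14.

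Members lower in spaQ by 2-fold or more were XTH21 (log2 difference -2.56 ± 0.40 (adjusted p = 9.6e-05)), EXPA5 (-1.61 ± 0.10 (adjusted p = 1.93e-08)), EXPA8 (-1.57 ± 0.12 (adjusted p = 8.26e-08)), EXLA3 (-1.42 ± 0.44 (adjusted p = 0.0146)), XTH4 (-1.10 ± 0.10 (adjusted p = 8.49e-07)) and XTH30 (-1.07 ± 0.10 (adjusted p = 6.1e-07)). In the spaQ libraries XTH21 rests on only 12, 4 and 7 reads and EXLA3 on 4, 6 and 6. The EXLA3 call was lost without cop1-4 replicate 2 (-1.22) or spaQ replicate 1 (-1.29). Members higher in spaQ by 2-fold or more were XTH32 (1.62 ± 0.11 (adjusted p = 4.92e-08)), XTH15 (1.14 ± 0.09 (adjusted p = 8.22e-08)), EXPA9 (1.12 ± 0.13 (adjusted p = 8.36e-06)), XTH31 (1.11 ± 0.12 (adjusted p = 3.48e-06)) and EXPA12 (1.01 ± 0.36 (adjusted p = 0.0308)). The EXPA12 call rests on under 1 CPM in every mutant library and was lost without cop1-4 replicate 1 (0.97), cop1-4 replicate 3 (0.80), or any of the 3 spaQ replicates (0.92 to 1.05).

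Within the XTH17 to XTH20 paralogs the direct comparison separated XTH17, which was lower in spaQ (log2 difference -0.92 ± 0.18 (adjusted p = 0.000683)), from XTH18 and XTH19, whose differences were positive and just missed the threshold at 0.30 ± 0.12 (adjusted p = 0.0516) and 0.37 ± 0.17 (adjusted p = 0.0895). XTH18 passed under 9 of the alternatives, with values from 0.30 to 0.40, and was 0.15 without cop1-4 replicate 1, and XTH19 passed under 2 of them (0.38 with no filter on low counts and 0.51 without cop1-4 replicate 3). The difference was also positive for XTH6 (0.89 ± 0.10 (adjusted p = 3.69e-06)) and EXPA1 (0.70 ± 0.09 (adjusted p = 1.84e-05)). For XTH22 it was -0.04, with a 95% interval of -0.28 to 0.20, and for XTH7 0.20, with an interval of -0.11 to 0.52. Among expansins 10 members (40%) were lower in spaQ and 6 (24%) higher, including both beta-expansins, EXLA1 and EXLA3 on the lower side. Among XTH genes 5 (17.9%) were lower and 7 (25%) higher. Over all tested genes 23.5% were lower and 24% higher.

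**Figure D4:**
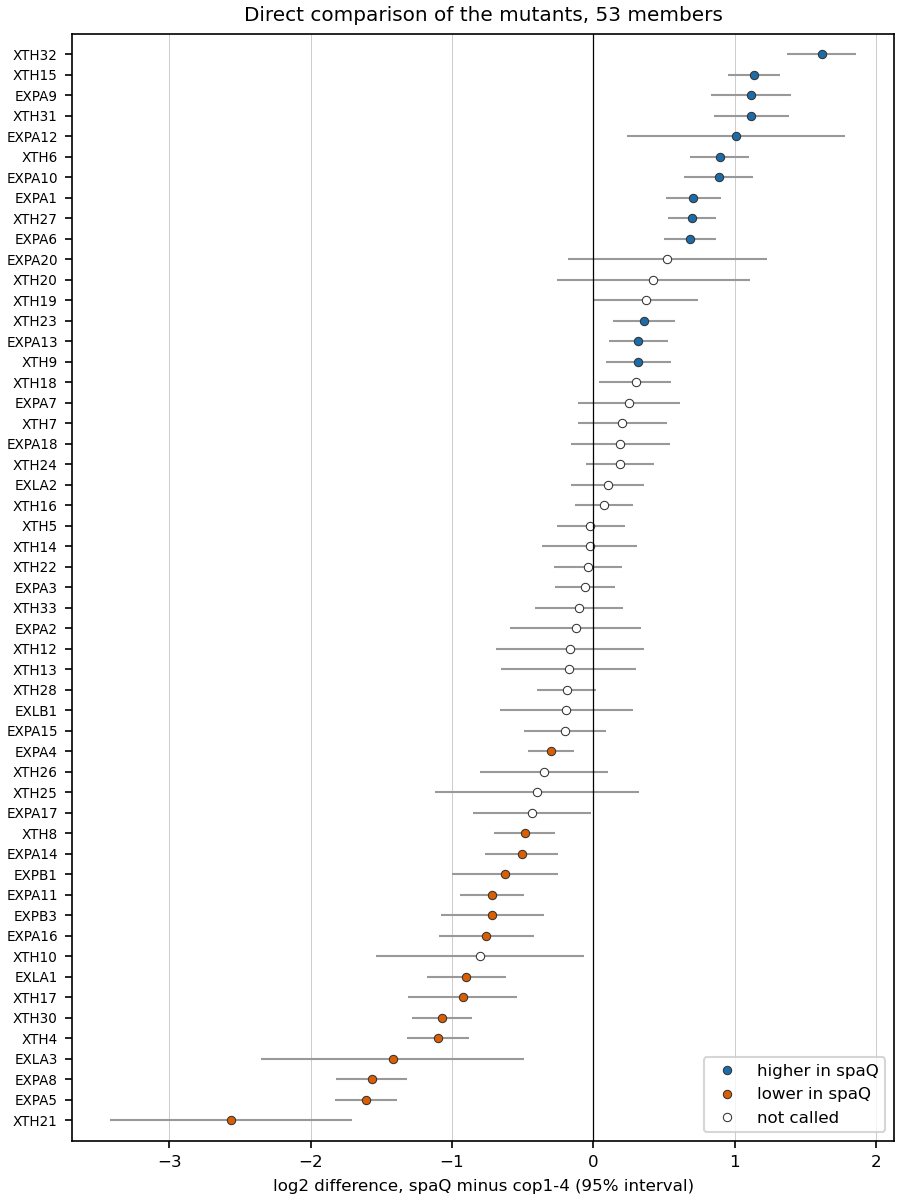
Log2 difference between spaQ and cop1-4 for each of the 53 members (horizontal axis, with 95% intervals from the fit, 3 libraries per genotype), sorted by value, blue where higher in spaQ, orange where lower and open where not called. XTH32 stands at the top at 1.62 and XTH21 at the bottom at -2.56, and 25 members are not called.

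Members that lie next to each other in the TAIR10.1 annotation did not always move together. On chromosome 4, XTH24, XTH18 and XTH19 follow each other on the minus strand with no other protein-coding gene between them. XTH24 was called slightly higher in both mutants while XTH18 and XTH19 fell. XTH23 and XTH14 are 363 bases apart on the same chromosome, and XTH23 fell while XTH14 was called higher. On chromosome 5, XTH13, XTH25 and XTH22 are adjacent, and XTH12 lies beyond 1 further gene. There XTH22 and XTH25 rose while XTH12 and XTH13 were not called. EXLA3 and EXLA1, 2012 bases apart on chromosome 3, both fell.

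The 300 bases upstream of every member were searched for 3 hexamers on both strands. The PBE-box was found upstream of 12 of the 53 members (22.6%), beside 13.3% of the 20272 upstream regions searched. Of these 12, EXPA11, EXPA12, EXPA13, XTH17, XTH18, XTH26 and XTH33 were lower in both mutants. EXPA1, EXPA17 and XTH25 were higher in both, EXPA10 was higher in spaQ, and EXPA2 was called in neither. Of the 41 members without it, 19 were lower in both mutants. No share for calls in both is given over all tested genes or over genes with the hexamer, so nothing is read from these counts. XTH17 and XTH18 carry the PBE-box within the same 73 identical bases and are not separate instances. In EXPA1 and EXPA10 the 2 matches overlap, since the hexamer reads on both strands there. The G-box CACGTG, also known as a site of PIF and of HY5 binding, was found upstream of EXPA2 alone (1.89% of members, 8.08% of all regions). The auxin response element TGTCTC was found upstream of 6 members (11.3%, beside 12.9% of all regions): EXPA5, EXPA6, EXPA7, EXPA10, XTH6 and XTH24. A match is only a run of letters, and no binding was measured.

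Outside the 53, the same families hold 14 further genes on the list, of which 8 had 0 reads in all 9 libraries, 3 had at most 26 reads in all and 3 were tested. XTH2, at most 0.910 CPM, fell in both mutants, with log2 fold changes of -3.38 and -3.08. XTH3 rose in cop1-4 by 1.08 and gave -0.21 in spaQ, not called, and XTH11 fell in spaQ by 1.11 and gave -0.27 in cop1-4, not called.

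Of 15 genes that make the backbone and side chains of xyloglucan, 11 fell and 2 rose in cop1-4 (73.3% fell, beside 30.3% of all tested genes), and 8 fell and 3 rose in spaQ (53.3% fell, beside 36.1%). At 2-fold or more, 4 fell in cop1-4 (26.7%, beside 11.7% of all tested genes) and 3 in spaQ (20%, beside 16.7%). None rose by that much, where 13% of all tested genes did in cop1-4 and 16.9% in spaQ. The median log2 fold changes of the list were -0.46 and -0.38. CSLC4 and CSLC5, backbone synthases, fell, with log2 fold changes of -1.75 and -1.34 in cop1-4 and -1.92 and -1.504 in spaQ. XXT4 and XXT1, xylosyltransferases, rose by 0.95 and 0.32 in cop1-4, and XLT2, a galactosyltransferase, and XXT4 rose by 0.88 and 0.62 in spaQ. The list's sum was 1000–1070 CPM in the Col-0 libraries, 559–593 CPM in cop1-4 and 580–597 CPM in spaQ.

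Of 5 genes for enzymes that trim xyloglucan in the wall, 2 fell (40%) and 2 rose (40%) in cop1-4. In spaQ 3 fell (60%) and 2 rose (40%). Over all tested genes 30.3% fell and 31.8% rose in cop1-4, and 36.1% fell and 35.5% rose in spaQ. These shares also stand beside the pump and marker lists below. The beta-galactosidase BGAL10 fell by 1.32 and 1.81 and the alpha-xylosidase XYL1 by 0.48 and 1.13, while BGLC1 rose by 0.87 and 0.89 and the fucosidase AXY8 by 0.47 and 0.23 (log2). Plasma membrane proton pumps acidify the wall, the condition under which expansins act. Of the 11 pump genes, 10 were tested, and 2 fell (20%) and 4 rose (40%) in each mutant. AHA2 fell by 1.14 and 1.54 and AHA9, at most 0.889 CPM, by 2.61 and 3.58, while AHA3 rose by 1.80 and 1.67, AHA5 by 0.72 in cop1-4 and AHA11 by 0.44 in spaQ. AHA9 had 0 reads in 2 of the 3 spaQ libraries. The pump list summed to 3130–3900 CPM in Col-0, 2120–2550 CPM in cop1-4 and 2000–2080 CPM in spaQ.

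Several members are known from root hairs, the root or xylem, so marker genes of these tissues were summed as well. The 8 root hair markers stood at 438–619 CPM in Col-0, 398–631 CPM in cop1-4 and 406–522 CPM in spaQ. Of these, 5 (62.5%) were called higher and 2 (25%) lower in cop1-4, and 3 (37.5%) higher and 2 (25%) lower in spaQ. COBL9 and RHS19 rose by 0.94 and 0.90 in cop1-4, and RHS19 and RSL4 by 1.14 and 0.85 in spaQ (log2). LRX2 fell by 2.52 and 2.74 and PRP1 by 0.45 and 0.75. These are the values beside which EXPA7, EXPA18 and XTH26 stand. The 8 markers of the root tip and endodermis summed to 496–556 CPM in the Col-0 libraries, 236–266 CPM in cop1-4 and 177–187 CPM in spaQ. CASP1 and CASP2 fell by 1.53 and 1.40 in cop1-4 and by 2.73 and 2.81 in spaQ (log2). WOX5 rose by 2.21 and 2.03, PLT1 by 0.91 and 0.75, PLT2 by 0.93 in cop1-4 and SCR by 0.64 in spaQ. In each mutant 4 of the 8 (50%) were lower and 3 (37.5%) higher. Most of the sum came from the endodermis genes CASP1 and CASP2, at a mean of 297 and 116 CPM in Col-0, while PLT1, the highest of the root tip genes WOX5, PLT1 and PLT2, reached 2.32 CPM at most. All 7 xylem markers fell in both mutants, from a summed 311–324 CPM to 155–175 CPM and 79.0–84.9 CPM, with VND6 and VND7 falling by 2.02 and 1.60 in cop1-4 and by 2.14 and 2.21 in spaQ. CASP1, CASP2, MYB36, SHR and the xylem markers were lower in both mutants, as were XTH17, XTH18, XTH19 and XTH30. SCR was not called in cop1-4 and was higher in spaQ, and none of WOX5, PLT1 and PLT2 was called lower. Among the members, XTH27, known from leaf tracheary elements, and XTH14, expressed in the root, were called higher in both mutants. The XTH14 calls were lost under library totals. None of the root tip, endodermis and xylem markers was at 0 in every library of a genotype. Their part in the member changes was not tested.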

How the data were processed

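Read counts per gene, 1 column for each of the 9 libraries, were taken from the table the authors deposited. Per the submitters' processing notes, FastQC, Bowtie2, TopHat, HTSeq and DESeq2 were used with the build TAIR10. No source used here gives their versions, the read length or the strand setting. Per the labels' protocols, RNA came from a Sigma spectrum kit and libraries from an Illumina TruSeq procedure. The authors' tables of regulated genes were not used.

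Counts were filtered with filterByExpr, scaled by TMM and fitted over all 9 libraries (3 genotypes, 6 residual degrees of freedom) with edgeR 4.0.16 in R 4.3.3 (glmQLFit and glmQLFTest). P-values were adjusted by the Benjamini-Hochberg method over 20779 genes, with calls at an adjusted p under 0.05. Standard errors are the absolute log2 fold change divided by the square root of F. CPM are counts divided by the TMM-scaled library total, and levels between genes are CPM per kb of coding sequence, with gene models from TAIR10.1. Gene identifiers of all 53 members matched that annotation, which also gave positions, overlaps, neighbours and upstream sequence (Biopython 1.88). In a simulation of the design on 20779 genes, 97 of 100 genes changed 2-fold were called. Only a small part of the genes was changed there, equally in both directions, in cop1-4 only, and none of the lowest genes. In the data most genes were called against Col-0, so the simulation tests neither the scaling nor the lowest levels.

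The origin of the replicates (separate sowings or not) is unstated, and the p-values then reflect only how these samples vary, which may be technical. Within genotypes, pairs of libraries differed by more than sampling noise (chi-square over its degrees of freedom 3.18 to 19.5), so all 9 were kept. Members and lists were chosen with earlier results of these data known. Values in every library are given for called members with at least a 2-fold change and a mean log2 CPM of at least 1, up to 15 per comparison with Col-0, and for the 5 most abundant members per kb in Col-0. They are also given for the members flagged for a closer look, whatever their level. Lists other than the members were described by counts and by the 2 genes with the largest called change in each direction. Alternatives were DESeq2 size factors, library totals, no filter on low counts, the DESeq2 1.42.0 Wald test, only the 6 libraries compared, a replicate block, a 2-fold limit and leaving out each library.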

Additional observations from a re-analysis of the deposited data

Results flagged for a closer look

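In 3 members the estimated change against Col-0 had opposite signs in the 2 mutants, and the direct comparison of spaQ with cop1-4 passed the test. In each, the change was called in spaQ and not in cop1-4, and the 2 comparisons share their Col-0 libraries. Under library totals EXPA10 and XTH31 were also called in cop1-4, as lower (-0.45 and -0.54), with their spaQ calls still higher (0.37 and 0.51). That scaling put the median of all tested genes at -0.31 in cop1-4 and -0.39 in spaQ. EXPA10, an alpha-expansin of leaf and petiole growth, had 8.18, 7.12 and 8.73 CPM in the Col-0 libraries, 6.42, 7.75 and 7.71 CPM in cop1-4 and 14.1, 13.8 and 12.5 CPM in spaQ, a log2 difference between the mutants of 0.888 (edgeR, adjusted p = 1.81e-05). XTH31, a group III enzyme with hydrolase activity, had 120, 95.4 and 118 CPM in the Col-0 libraries, 77.5, 96.0 and 111 CPM in cop1-4 and 222, 198 and 195 CPM in spaQ, a log2 difference of 1.115 (adjusted p = 3.48e-06). XTH21, a gene of root growth, had 1.10, 1.43 and 1.12 CPM in the Col-0 libraries, 1.24, 2.13 and 1.39 CPM in cop1-4 and 0.438, 0.114 and 0.274 CPM in spaQ, a log2 difference of -2.565 (adjusted p = 9.6e-05). For EXPA10 and XTH31 all spaQ libraries lay above all other libraries, and for XTH21 all lay below. The spaQ values of XTH21 rest on only 12, 4 and 7 reads. The 8 root tip and endodermis markers did not all move alike between the mutants. CASP1, CASP2 and MYB36 were lower in spaQ than in cop1-4 (log2 differences -1.20, -1.41 and -0.56) and SCR was higher (0.49). SHR, PLT1, PLT2 and WOX5 were not called. Their part in the XTH21 difference was not tested.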

How the results depend on the processing

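The count of members called stayed within 1.5 times under every alternative except the 2-fold limit, which left 7 higher members in cop1-4, 9 in spaQ, and 6 lower and 5 higher between the mutants. Leaving out single libraries gave 27 to 29 lower and 12 to 17 higher members in cop1-4, 28 to 30 and 17 to 19 in spaQ, and 14 to 20 and 9 to 14 between the mutants. The member median ranged from -0.467 to -0.292, from -0.761 to -0.636 and from -0.205 to 0.099, and under library totals it was -0.726 in cop1-4 and -1.071 in spaQ. Of the 53 members, 42, 46 and 40 kept their call (lower, higher or none) under all alternatives other than the 2-fold limit in these 3 comparisons, and 30, 37 and 26 when that limit was included. Replicate numbers did not pair the libraries (correlations of same-numbered libraries from -0.149 to 0.163). Between libraries of different numbers the correlations ranged from -0.216 (Col-0 replicate 3 with cop1-4 replicate 1) to 0.279 (Col-0 replicate 2 with cop1-4 replicate 1). With a replicate block 27 members were lower and 15 higher in cop1-4, 29 and 19 in spaQ, and 15 and 14 between the mutants.

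Sign changes touched values that had not been called. Library totals leave out the TMM factors, 1.16 to 1.18 in Col-0, 0.918 to 0.957 in cop1-4 and 0.898 to 0.913 in spaQ. That setting therefore lowers all values of a mutant against Col-0 by nearly the same amount. The median of all tested genes became -0.31 in cop1-4 and -0.39 in spaQ. For the other settings the cause of sign changes was not tested. Under library totals the cop1-4 value was -0.299 for EXPA2, -0.115 for EXPA6, -0.170 for XTH9, -0.235 for XTH13 and -0.091 for XTH28, and the spaQ value was -0.151 for XTH12 and -0.341 for XTH28 (adjusted p = 0.00648). EXPA2 in cop1-4 was -0.008 with DESeq2 size factors and -0.002 with the replicate block, under which XTH14 differed between the mutants by 0.004. With single libraries left out, EXPA2 ranged from -0.241 to 0.210 in cop1-4, from -0.400 to 0.121 in spaQ and from -0.413 to 0.132 between the mutants. XTH13 ranged from -0.193 to 0.357, from -0.232 to 0.013 and from -0.455 to 0.099 in the same order, and XTH28 in spaQ from -0.044 to 0.085. Between the mutants the range was -0.163 to 0.024 for EXPA3, -0.013 to 0.185 for EXLA2, -0.071 to 0.039 for XTH5, -0.465 to 0.107 for XTH12, -0.205 to 0.172 for XTH14, -0.145 to 0.060 for XTH22 and -0.245 to 0.005 for XTH33. Depth limits the 6 members with a mean log2 CPM below 1, where single libraries held few reads.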
